A study of Mus musculus with 49 samples.

Results

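SINE B2 and B3 elements were followed copy by copy in single late 2-cell mouse embryos after loss of TBP. The members were the rows of the insertion tables annotated as B2:SINE that had 1 read or more in 25% or more of the TBP LOF and CONTROL embryos with at least 500000 counted reads, which meant at least 5 of 18 embryos. This rule kept 15220 of 390816 annotated B2:SINE copies (3.89%), and 61368 copies (15.7%) had a read in any of these embryos. No measured difference between the groups entered the rule. The 15220 members stood among 40760 transposable element (TE) insertions of all classes that passed the same limit, out of 3864699 annotated insertions. At the limit, 2476 copies with reads in exactly 5 embryos were kept, with a median of 14 reads in all, and 3343 copies with reads in 4 embryos were not, with a median of 9 reads.

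The parents of the embryos were F1 hybrids of C57BL/6J and CBA/H mice on both sides, and each library was made from 1 embryo. TBP LOF embryos received an anti-TBP antibody as zygotes, and CONTROL embryos received normal mouse IgG (mIGG). After 4 h of culture all of them received mRNA for mCherry-Trim21, the ubiquitin ligase that sends antibody-bound protein to degradation (Trim-Away), and all were collected at 48 h after hCG. FOXJ3 LOF embryos received anti-FOXJ3 antibody and their CONTROL embryos received normal rabbit IgG (rIGG), with the same Trim21 mRNA, in 2 library batches. Quality control kept 9 of 9 TBP LOF and 9 of 10 mIGG CONTROL embryos, and 16 of 17 FOXJ3 LOF and 13 of 13 rIGG CONTROL embryos. For the TBP experiment the study's methods give the sizes of both groups the other way round from the labels, and the labels were followed here. The kept TBP LOF and mIGG CONTROL embryos had 1160150 to 5434808 counted reads and the FOXJ3 LOF and rIGG CONTROL embryos 1103569 to 3430110. Insertion counts were used for the TBP experiment and counts per family for both experiments. The injected antibody acts on protein, so that Tbp mRNA does not check the depletion. All 9 marker genes of the late 2-cell stage had reads in every group. Some had few: Duxf3 had 7, Usp17la 94 and Tdpoz4 131 reads over the TBP LOF and mIGG CONTROL embryos. Of 9 markers of cumulus and granulosa cells, which surround the zygote, Has2, Ptx3 and Fshr had 0 reads in all TBP LOF and mIGG CONTROL embryos, and the 9 together had 2 to 12 reads per LOF and 0 to 29 per CONTROL embryo. Tnfaip6 had 97 reads over both groups, Star 27, Cyp19a1 15, Foxl2 13, Ptgs2 12 and Amh 4. FOXJ3 LOF embryos had 0 to 26 reads of these markers and rIGG CONTROL embryos 0 to 43, with 227 reads of Tnfaip6 over both groups.

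SINEs are short non-coding retrotransposons. B2 elements derive from a tRNA gene and carry an internal RNA polymerase III promoter, the A box and the B box, within their own first bases. At such promoters TFIIIC binds the A and B boxes and places TFIIIB, a complex of TBP, BRF1 and BDP1, which recruits RNA polymerase III. B2_Mm1a, B2_Mm1t and B2_Mm2 are younger B2 families of the mouse, and B3 and B3A are older relatives whose copies have diverged further from each other. B2 copies also lie inside genes and can be carried in transcripts of RNA polymerase II. These libraries were primed with oligo-dT, and only reads of transcript 5′ ends were counted. A counted B2 read from a longer transcript and one from a free B2 RNA were not told apart.

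To show what a B2 promoter reads like, the primer pair that the study used for SINE B2 was placed on gene promoters of RefSeq (assembly GRCm38.p6, 250 bases before to 50 after each gene start). The forward primer and the reverse primer, each 20 bases long and printed in capitals throughout, were as follows.
sineb2_frd: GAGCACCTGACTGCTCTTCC
sineb2_rev: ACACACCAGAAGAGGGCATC
Within 32851 promoters of 300 bases, and with stretches on 1 chromosome left out, 10 stretches of at most 150 bases held both primers with at most 3 mismatches each. The stretch at Gm40634 matched them best, with 1 mismatch to the forward and 0 to the reverse primer. The 4 stretches below are printed 5′ to 3′ on the strand of the B2 sequence, and the capitals mark the A box letters TGGCNNAG and the B box letters GTTCNANNC. The letters printed for Gm39090 are chr7:127696179-127696326 and those for Gm34462 chr3:64230897-64231033, both on the plus strand and on the strand of the gene. Those for Gm40634 are chr10:43743125-43743272 on the plus strand and those for Gm49249 chr15:8511051-8511198 on the minus strand, in both cases opposite to the gene.
Gm39090: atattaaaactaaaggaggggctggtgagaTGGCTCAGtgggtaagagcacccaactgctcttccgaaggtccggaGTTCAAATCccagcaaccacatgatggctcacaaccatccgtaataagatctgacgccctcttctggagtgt
Gm34462: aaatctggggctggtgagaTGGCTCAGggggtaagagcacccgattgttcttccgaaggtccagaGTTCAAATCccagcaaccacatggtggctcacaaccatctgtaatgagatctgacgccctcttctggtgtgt
Gm40634: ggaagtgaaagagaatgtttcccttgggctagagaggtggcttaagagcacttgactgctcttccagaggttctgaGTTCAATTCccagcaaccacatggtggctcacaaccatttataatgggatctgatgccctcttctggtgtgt
Gm49249: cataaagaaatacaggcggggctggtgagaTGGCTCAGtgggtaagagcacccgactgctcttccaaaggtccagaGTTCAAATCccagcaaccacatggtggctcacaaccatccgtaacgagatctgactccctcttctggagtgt
The B box letters were in 10 of 10 stretches and on either strand of 9.32% of all promoters, and the A box letters were in 21.1% of promoters. In the stretches that held the A box letters these began 15 bases before the forward primer, and 3 of the 10 stretches began after that position at the edge of the window; of the other 7, 5 held them. The letters of Gm40634 held the B box and no match to the A box as spelled here. These stretches illustrate the sequence and are not the counted copies. The insertion tables name each copy by a number without coordinates, and copies are named here in that form.

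The families contributed very unequally. B2_Mm1a gave 7112 members out of 19536 annotated copies (36.4%), of which 3304 stood in 7 subfamily rows. B2_Mm1t gave 4841 of 24345 (19.9%), B2_Mm2 2591 of 94704 (2.74%), B3 471 of 155339 (0.303%) and B3A 205 of 96892 (0.212%). The annotation thus holds about as many B3A as B2_Mm2 copies, while far fewer B3A copies had reads. Such shares may also depend on how the counting treated reads that match several copies, which is not known here. Members took 96.2% of the B2_Mm1a reads, 94.5% of B2_Mm1t, 74.3% of B2_Mm2, 37.4% of B3 and 58.4% of B3A. Over the 18 embryos a member had a median of 45 reads (range 5 to 15607). Fewer than 20 reads lay behind 3746 members (24.6%), with 59.0% of B3 and 63.4% of B3A members among them. All 18 embryos had reads for 527 members, and a single embryo had reads for 4112 to 11093 of them (27.0 to 72.9%).

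The amount of B2 RNA varied widely between embryos of the same group. Together, B2_Mm1a, B2_Mm1t and B2_Mm2 took 1.97%, 4.18% and 18.4% of the counted reads at the lowest, median and highest TBP LOF embryo. In CONTROL embryos they took 1.88%, 8.83% and 17.7%. Among LOF embryos, numbers 1, 9 and 2 had 18.4, 13.8 and 13.3%, and the other 6 had 1.97 to 4.58%. Among CONTROL embryos, numbers 9, 10 and 8 had 1.88, 2.71 and 3.13%, and the other 6 had 6.43 to 17.7%. The share of mitochondrial reads moved with this: it was 8.73, 9.02 and 9.85% in LOF embryos 1, 9 and 2 and 4.69 to 7.15% in the other 6. In CONTROL embryos 9, 10 and 8 it was 3.51, 4.11 and 3.00%, against 5.64 to 8.51% in the other 6. The study states that the embryos came from several independent experiments. The sources used here do not say which embryos were collected together, and the main tests treat all embryos as independent.

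Reads were scaled to ERCC spike-ins, which makes a value proportional to RNA per embryo relative to the spike-in and not to the library share. So scaled, all 5 families had lower means in TBP LOF than in CONTROL embryos. The drop passed the test for B2_Mm2, B3 and B3A and not for the 2 families with the most reads. In a single embryo, fewer active cells and less RNA per cell cannot be told apart. Scaled B3 reads per embryo were lowest, median and highest at 393, 1596 and 2403 in LOF and at 1324, 4095 and 5391 in CONTROL. Here 8 of 9 CONTROL embryos lay above every LOF embryo, and CONTROL embryo 9 lay among the LOF embryos. B3 fell by 1.40 ± 0.33 on the log2 scale (SE, 9 against 9 embryos, edgeR's quasi-likelihood test, adjusted p = 0.000525). B3A had 383, 1282 and 2431 in LOF and 900, 2771 and 4329 in CONTROL, with overlapping ranges, and fell by 1.03 ± 0.32 (adjusted p = 0.00971).

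The B2 families proper showed the same direction with a wider spread. B2_Mm2 had 3790, 8749 and 30893 scaled reads per LOF embryo and 4314, 25217 and 57200 per CONTROL embryo, and fell by 1.13 ± 0.41 on the log2 scale (adjusted p = 0.0304). B2_Mm1a had 16780, 35191 and 159365 in LOF and 18244, 95990 and 214884 in CONTROL. Its log2 change of -0.81 ± 0.44 did not pass the test (adjusted p = 0.167), with a coefficient of variation of 83.5% among LOF and 66.8% among CONTROL embryos. B2_Mm1t, with 11551, 23082 and 97810 in LOF and 12039, 62179 and 136703 in CONTROL, changed by -0.84 ± 0.43 (adjusted p = 0.139). The LOF and CONTROL ranges overlapped in all 3. For background, 29.7% of the 19356 genes and TE families were called lower under this scaling and 1.34% higher, and 261 of 909 TE families were called lower. The 3 of 5 SINE B2 and B3 families called lower stood against that.

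**Figure D1:**
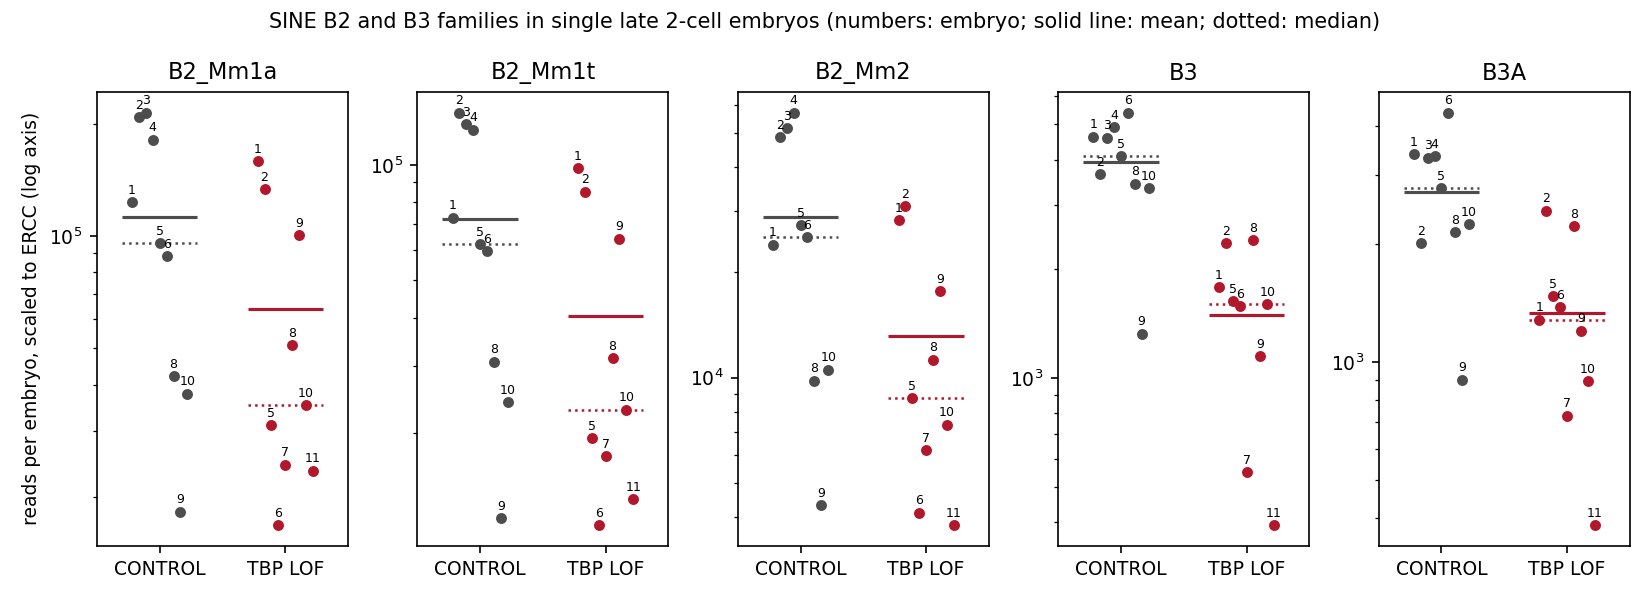
Reads per embryo scaled to ERCC spike-ins (log axis) for the 5 SINE B2 and B3 families, with a point for each of 9 CONTROL (grey) and 9 TBP LOF (red) embryos, labelled by embryo number; solid lines are means and dotted lines medians. B3 LOF embryos lie at 393 to 2403 reads with only CONTROL embryo 9 among them, while B2_Mm1a and B2_Mm1t spread over the same wide range in both groups.

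These values depend on the scaling. Under ERCC scaling the median log2 change of all genes and families was -0.72, and under TMM scaling, which sets libraries by the bulk of their features, it was 0.11. With TMM scaling B3 still fell, by 0.65 (adjusted p = 0.0424), and background calls were 12.7% lower and 12.8% higher. B2_Mm2 then changed by -0.36 (adjusted p = 0.573), B3A by -0.24 (0.508), B2_Mm1a by -0.02 (0.978) and B2_Mm1t by -0.04 (0.960). With embryo numbers as a block, which did not pair the embryos, B2_Mm2 and B3A also lost their calls. B3 kept its call in all 29 alternatives run, with adjusted p from 5.12e-05 to 0.0424. B2_Mm2 lost it without any of 8 embryos (LOF 5, 6, 7, 10 or 11, or CONTROL 2, 3 or 4), where its log2 change was -1.06 to -0.95 and its adjusted p 0.0514 to 0.0833 (over all 29 alternatives 4.21e-05 to 0.573). Leaving out LOF embryo 1 brought B2_Mm1a to -1.11 (adjusted p = 0.0490) and B2_Mm1t to -1.12 (0.0413), and over all 29 alternatives adjusted p ran from 0.000683 to 0.978 and from 0.000535 to 0.960. With the mitochondrial share as a covariate, an alternative chosen after seeing the data, all 5 families fell, B2_Mm1a by 1.49 and B2_Mm2 by 1.75 (adjusted p = 4.21e-05). Its part in the embryo to embryo spread was otherwise not tested. The mitochondrial share was measured after the injections and lay at 4.69 to 9.85% in LOF and 3.00 to 8.51% in CONTROL embryos. Whether TBP loss itself moved this share was not tested, and if so the covariate would distort the LOF effect.

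Of the reads of the 5 families, B2_Mm1a held 52.1% in LOF and 50.3% in CONTROL embryos (means of 9), B2_Mm1t 33.3 and 32.7%, and B2_Mm2 11.2 and 12.8%. B3 held 1.79% in LOF and 2.47% in CONTROL embryos, and B3A 1.59 and 1.70%.

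At the level of single copies, 1467 of 15220 members (9.64%) were called lower in TBP LOF embryos and 106 (0.696%) higher. Over all 59207 genes and insertions of the same fit, 14.6% were called lower and 0.76% higher, so that the share of members called lower was under the background. With the mitochondrial share as a covariate, chosen after seeing the data, it was above, at 19.4% of members beside 16.8% of all features. That share was measured after the injections, so that this fit may distort the LOF effect. The median log2 change of the members was -0.92, beside -0.69 for all features and -0.69 for genes. By family, B3 had 84 of 471 members lower (17.8%) and 0 higher, with a median log2 change of -1.35. B3A had 34 of 205 lower (16.6%) and 2 higher, with a median of -1.53. B2_Mm2 had 347 of 2591 lower (13.4%) and 19 higher, median -1.10. B2_Mm1t had 422 of 4841 lower (8.72%) and 36 higher, median -0.86, and B2_Mm1a had 580 of 7112 lower (8.16%) and 49 higher, median -0.86. Within B2_Mm1a, copies of the 7 subfamily rows were called lower in 227 of 3304 cases (6.87%) and the other copies in 353 of 3808 (9.27%). Differences between families in these shares were not tested.

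Copies that passed the read limit through 1 group had to differ, and these made up part of the counts. Only copies without any read in 1 group were set apart here, and not those with reads in a few of its embryos. No read in LOF embryos was found for 163 members and none in CONTROL for 32, and all 163 were called lower, among them 34 of the 84 B3, 12 of the 34 B3A and 66 of the 347 B2_Mm2 copies. Among copies with reads in both groups, 50 of 437 B3 (11.4%), 22 of 191 B3A (11.5%) and 281 of 2517 B2_Mm2 copies (11.2%) were called lower, so that these shares lay close together. B2_Mm1t then had 399 of 4809 (8.30%) and B2_Mm1a 552 of 7071 (7.81%), and all members 1304 of 15025 (8.68%), beside 12.8% of all features with reads in both groups. Of the 106 members called higher, 28 had no read in CONTROL embryos, both B3A copies among them, which left 78 of 15025 higher (0.519%), 0 of them B3 or B3A, beside 0.457% of all features with reads in both groups. Their median log2 changes were -1.18 (B3), -1.48 (B3A), -1.06 (B2_Mm2), -0.85 (B2_Mm1t) and -0.86 (B2_Mm1a). Setting the copies without reads at the bound that 3 reads over a group allow left the medians over all members of a family as given to 2 decimals, which such copies can hardly move. In 17 of 15220 members all 9 LOF embryos lay below all 9 CONTROL embryos, and in 0 members above. Among all 59207 features it was 1603 below and 2 above, a larger share on the lower side. With TMM scaling 531 members were lower and 208 higher, at a background of 6.76% lower and 2.63% higher, and the median of all features moved from -0.69 to -0.06. All 531 were among the 1467, and all 106 among the 208. DESeq2 called 1140 lower and 52 higher, 908 of them shared with the 1467 (61.9% of these and 79.6% of the DESeq2 calls), with 2954 members left without an adjusted p by its own filter, and over all features it called 15.1% lower and 0.554% higher. Single embryos moved the count of higher calls: 54 to 69 were left (0.369 to 0.471% of members) without LOF embryo 1 or 9 or CONTROL embryo 5, 8, 9 or 10, where the count over all features also fell, from 450 to between 255 and 324 (0.452 to 0.571%). Among the family counts, B2_Mm2 had 229 of 2242 lower (10.2%) without CONTROL embryo 2 and 218 of 2313 (9.42%) without CONTROL embryo 4. All features had 13.7 and 12.8% lower in these fits. B3A had 20 of 180 lower (11.1%) without CONTROL embryo 3 and 22 of 177 (12.4%) without CONTROL embryo 5. All features had 12.9 and 12.98% lower there. The B3A share thus moved from above that of all features to below it. B3 had 41 lower with TMM scaling (8.7%) and 51 with DESeq2 (10.8%), and B3A 14 (6.83%) and 20 (9.76%). All features had 6.76% lower with TMM scaling and 15.1% with DESeq2. With embryo numbers as a block, which left 14 embryos and whose numbers did not pair them, 13 of 438 B3 (2.97%), 2 of 191 B3A (1.05%), 50 of 2306 B2_Mm2 (2.17%), 113 of 4500 B2_Mm1t (2.51%) and 143 of 6671 B2_Mm1a copies (2.14%) were lower. B3A then had the lowest share and B2_Mm2 one under B2_Mm1t, and 6.37% of all features were lower in this fit.

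More calls were made where a copy had more reads. Among members with a mean under 1 scaled read per embryo, 5.1% were called lower, then 7.25% at 1 to 3 reads, 11.7% at 3 to 10, 14.2% at 10 to 30 and 15.5% of the 1011 members over 30. Genes had 4.39, 5.27, 8.97, 23.4 and 47.6% in the same ranges, so that the members' share was above that of genes under 10 reads and below it from there on. All features had 6.92, 9.88, 12.7, 19.1 and 37.3%, so that the members' share was under theirs in every range. The median log2 change of the members was -0.68 in the lowest range and -0.94, -1.05, -1.001 and -0.95 in the next, beside -0.35, -0.51, -0.56, -0.72 and -1.01 for genes. SINE B1 insertions, another SINE class of RNA polymerase III origin derived from 7SL RNA, were lower in 957 of 3983 cases (24.0%) and higher in 17, with a median of -1.74. Of the SINE B4, ID and MIR insertions 239 of 1370 were lower (17.4%) and 10 higher, with a median of -1.34. Copies without a read in LOF embryos made up 311 of the 957 and 90 of the 239, and among copies with reads in both groups 646 of 3660 B1 (17.7%) and 149 of 1269 B4, ID and MIR copies (11.7%) were lower. Over 30 reads, 67.6% of 34 B1 copies and 3 of 4 B4, ID and MIR copies were called lower. The difference between these classes and B2 was not itself tested.

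**Figure D2:**
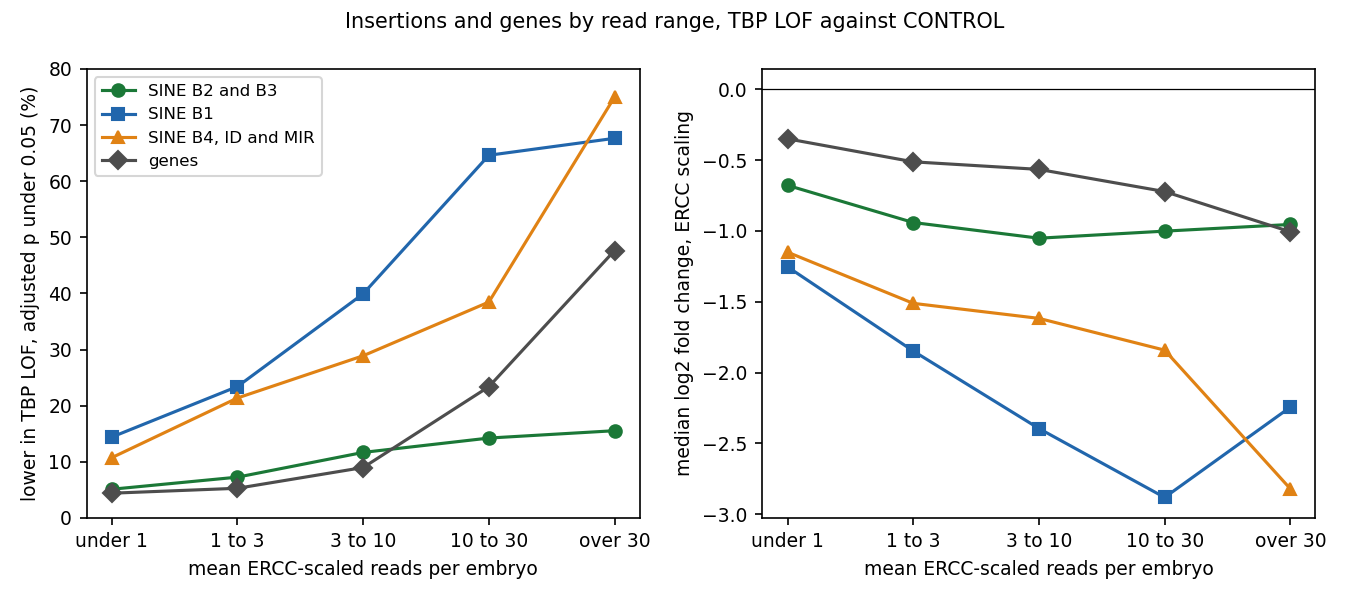
Left, percent of features called lower in TBP LOF embryos (adjusted p under 0.05, ERCC scaling) and right, their median log2 fold change, each by mean ERCC-scaled reads per embryo, for SINE B2 and B3 members (green), SINE B1 (blue), SINE B4, ID and MIR (orange) and genes (grey). The members rise from 5.1 to 15.5% called lower while genes reach 47.6% and B1 67.6%, and the median of the members stays between -0.68 and -1.05.

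Counted reads of the 3 B2 families were spread over many copies in each embryo. How the counting treated reads that match several near-identical copies is not known, so that these are not numbers of active copies. The effective number of copies, the number of equally read copies that would give the same concentration, was 441 ± 92.2 in LOF and 564 ± 134 in CONTROL embryos for B2_Mm1a (SD, n = 9 each). For B2_Mm1t it was 288 ± 98.6 and 312 ± 83.3, and for B2_Mm2 227 (131 to 281) and 308 (242 to 415). B3 had 236 ± 108 in LOF and 452 ± 160 in CONTROL embryos. Values of LOF and CONTROL embryos overlapped in all 4 families. Thinning each embryo to the smallest family total gave means of 430 (LOF) and 545 (CONTROL) effective copies for B2_Mm1a at 13096 reads and of 205 and 322 for B3 at 849 reads. For B2_Mm1t it gave 280 and 305 at 9048 reads, and for B2_Mm2 215 and 286 at 3158. The 100 most-read copies of an embryo took 36.5% of B2_Mm1a reads in LOF and 32.3% in CONTROL, 43.7 and 40.4% of B2_Mm1t, 47.3 and 40.5% of B2_Mm2, and 45.6 and 32.6% of B3 reads.

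The copies at the top differed from embryo to embryo. Among the 100 most-read B2_Mm1a copies, a pair of LOF embryos shared a median of 37.5, a pair of CONTROL embryos 34 and a mixed pair 33. For B2_Mm1t these medians were 35, 34.5 and 33, for B2_Mm2 24, 26.5 and 22, and for B3 17, 26 and 18. The lists were taken at the full depth of each embryo, without thinning. B3 had a mean of 1539 reads per LOF and 2939 per CONTROL embryo, so that counting error limits its overlaps, more so in LOF embryos. Only 3 B2_Mm1a, 2 B2_Mm1t, 5 B2_Mm2 and 0 B3 copies were among the top 100 of all 18 embryos. B2_Mm1t_dup14037 was the most-read copy of its family in 6 CONTROL and 1 LOF embryo. In B3, B3_dup58743 and B3_dup145311 each were listed as the most-read copy in 4 LOF and 0 CONTROL embryos. In LOF embryos 2, 7 and 8 the 2 copies tied, at 2.79, 2.71 and 2.78% of B3 reads, and were listed under B3_dup145311. In LOF embryo 9 B3_dup145311 held 3.33% and B3_dup58743 3.20%. The most-read B2_Mm1a copy was the same in at most 3 embryos.

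**Figure D3:**
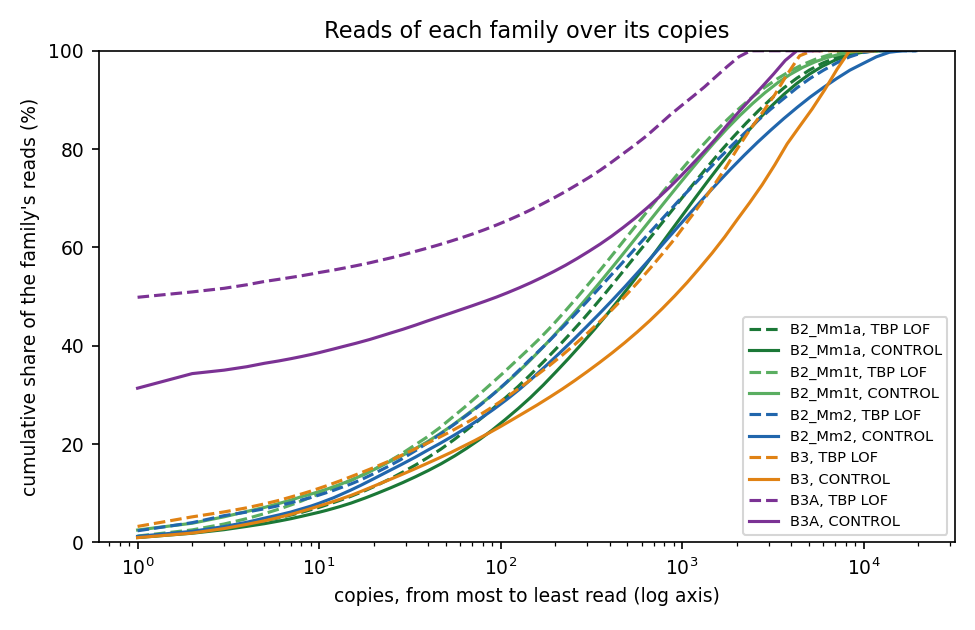
Cumulative share of a family's reads (percent) against its copies ordered from most to least read (log axis), each copy at its mean share over 9 TBP LOF (dashed) or 9 CONTROL (solid) embryos, with a colour for each family. The B3A curves start at 49.9% in LOF and 31.4% in CONTROL on their first copy, and the first B2_Mm1a copy holds 1.05% and 0.996%.

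In B3A, 1 copy held much of the family. B3A_dup29955 was the most-read B3A copy in 18 of 18 embryos and held 39.8% of all B3A reads. It took a mean of 49.9 ± 15.5% of B3A reads in LOF embryos (13.9 to 68.7%) and 31.4 ± 7.81% in CONTROL embryos (17.7 to 42.5%). The effective number of B3A copies was small, 7.95 ± 13.2 in LOF and 11.9 ± 7.52 in CONTROL. LOF embryo 10 alone had 43.1, and the other 8 LOF embryos had 2.11 to 4.93, with a mean of 3.55 ± 0.97 (the group's median was 4.14, beside 10.2 in CONTROL). The copy itself had 116, 642 and 1452 scaled reads at the lowest, median and highest LOF embryo and 293, 815 and 1640 in CONTROL. Its change of -0.37 ± 0.39 did not pass the test (adjusted p = 0.595), and with TMM scaling its direction turned, to 0.33. All other B3A copies together had 195 to 1081 scaled reads per LOF embryo (mean 621 ± 287) and 592 to 2531 per CONTROL embryo (mean 1749 ± 546), and CONTROL embryo 9 alone lay within the LOF range. Without this copy, a sum chosen after seeing the data, B3A fell by 1.49 on the log2 scale (adjusted p = 0.000154) in place of 1.03. Without the most-read copy, the other families changed by -0.82 (B2_Mm1a), -0.82 (B2_Mm1t), -1.16 (B2_Mm2) and -1.44 (B3). Without the 100 most-read copies they changed by -0.90, -0.85, -1.12 and -1.45, and B3A by -1.44.

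**Figure D4:**
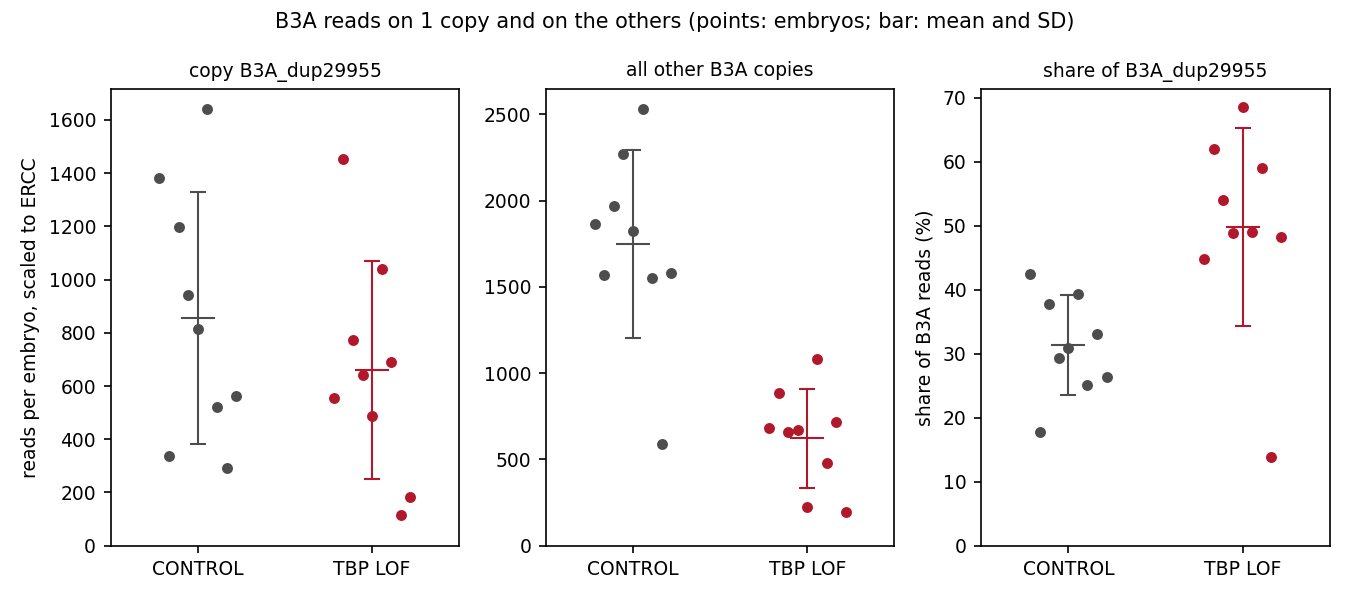
Left, ERCC-scaled reads per embryo on the copy B3A_dup29955; middle, the same on all other B3A copies; right, the share of B3A reads (percent) on that copy, with a point for each of 9 CONTROL (grey) and 9 TBP LOF (red) embryos and bars for mean and SD. The single copy overlaps between groups (116 to 1452 against 293 to 1640), while the other copies lie at 195 to 1081 in LOF and 592 to 2531 in CONTROL embryos.

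Values of single young B2 copies are uncertain, since a read can match several near-identical copies and the sources used here do not say how the counting treated such reads. Of the 3 most-read copies of each family, 3 of 15 passed the test, all lower in LOF. Over 30 reads 15.5% of members and 37.3% of all features were lower, and 14.6% of all features at any depth. B2_Mm1t_dup14037, the member with the most reads, had 53.1, 317 and 1235 scaled reads at the lowest, median and highest LOF embryo and 495, 752 and 4625 in CONTROL. In 7 of 9 LOF embryos it was under the lowest CONTROL embryo. It fell by 2.15 ± 0.52 (adjusted p = 0.00663), and with TMM scaling by 1.39 (adjusted p = 0.0710, the highest over its alternatives). B3_dup38365 had 0 to 14.5 reads in LOF and 14.8 to 66.8 in CONTROL embryos, without overlap. It fell by 2.24 ± 0.58 (adjusted p = 0.0101) and lost its call with TMM scaling (adjusted p = 0.0564). B3A_dup37703 had 1.15, 3.18 and 21.7 reads in LOF and 33.9, 58.2 and 106 in CONTROL. Every LOF embryo lay below every CONTROL embryo, and the copy fell by 3.15 ± 0.53 (adjusted p = 0.000316).

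The other most-read copies did not pass the test and went in both directions. B2_Mm1a_dup4004, the B2_Mm1a copy with the most reads, had 148 to 1764 scaled reads in LOF and 211 to 1200 in CONTROL embryos and a log2 change of -0.12 ± 0.43, which TMM scaling turned to 0.57. B2_Mm1a_dup10132 changed by -0.38, B2_Mm1t_dup13622 by -1.01, B2_Mm2_dup3593 by -0.78, B2_Mm2_dup53239 by -0.86 and B3A_dup9261 by -1.90, with adjusted p from 0.143 to 0.737. With the mitochondrial share as a covariate B2_Mm1a_dup10132 (adjusted p = 0.0376), B2_Mm1t_dup13622 (0.0136), B2_Mm2_dup53239 (0.0354), B3A_dup9261 (0.0373) and B2_Mm1a_dup12256 (0.0358) were called lower, and B2_Mm1t_dup13622 also with no filter on low counts (8.19e-06). Without LOF embryo 1, which had 741 scaled reads against at most 302 in the others, B2_Mm2_dup53239 changed by -1.52 (adjusted p = 0.0466, over all its alternatives 0.0354 to 0.849). On the higher side stood B2_Mm2_dup50976 at 0.25 (1.15 with embryo numbers as a block, adjusted p = 0.0392, over its alternatives 0.0392 to 0.978), B3_dup145311 at 0.58 and B3_dup58743 at 1.05 ± 0.46. B3_dup58743 had 13.3 to 126 reads in LOF and 5.05 to 32.5 in CONTROL embryos, and 6 of 9 LOF embryos were above the highest CONTROL embryo. It passed the test with TMM scaling alone (log2 change 1.59, adjusted p = 0.0185, over all its alternatives 0.0185 to 0.400).

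A pair of copies from different families had similar read numbers in most embryos, as seen once their values were known. In LOF embryos B2_Mm1a_dup12256 and B2_Mm1t_dup19316 had 991 and 807 reads (embryo 1), 34 and 0 (2), 596 and 532 (5), 241 and 214 (6), 388 and 357 (7), 1 and 1 (8), 885 and 875 (9), 366 and 322 (10) and 369 and 313 (11). In CONTROL embryos they had 526 and 563 (embryo 1), 1162 and 852 (2), 1134 and 1009 (3), 262 and 206 (4), 361 and 340 (5), 362 and 293 (6), 1463 and 1406 (8), 385 and 370 (9) and 432 and 397 (10). LOF embryos 2 and 8 thus stood apart for both copies. Their log2 changes were -1.34 ± 0.60 (adjusted p = 0.138) and -1.36 ± 0.69 (0.199), and without LOF embryo 1 the first fell by 1.82 (adjusted p = 0.0371, over its alternatives 1.53e-07 to 0.613). The second was called with no filter on low counts (adjusted p = 7.25e-07) and with the block (0.00276), and over its alternatives adjusted p reached 0.671.

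The copies with the smallest adjusted p among those lower had low values throughout the LOF embryos. B2_Mm2_dup89330 had 0, 1.21 and 6.35 scaled reads at the lowest, median and highest LOF embryo and 17.6, 157 and 264 in CONTROL, without overlap. It fell by 5.95 ± 0.68 on the log2 scale (adjusted p = 9.8e-06), had a read in 16 of 18 embryos and kept its call in all 25 alternatives. B2_Mm1t_dup15070 had 0, 2.45 and 10.9 reads in LOF and 12.2, 57.1 and 221 in CONTROL embryos, also without overlap, and fell by 4.61 ± 0.71 (adjusted p = 0.000137). B2_Mm1t_dup4289 fell by 6.25 (adjusted p = 0.000153) from 2.23 to 251 reads in CONTROL to at most 1.21 in LOF embryos, and B2_Mm1a_dup314 fell by 5.52 (0.000221). The next 2 copies had no read in LOF embryos and passed the read limit through CONTROL alone, so that they had to differ and their values are a description. B3_dup99751 had 0 reads in all LOF embryos and 62 in CONTROL, at least 30.5-fold lower when the LOF group is set at 3 reads, and B3_dup39155 had 0 and 35 reads, at least 17.2-fold lower, a call lost with the block (adjusted p = 0.0735, the highest over its alternatives). For copies with 1 to 3 reads in a group only the ratio with its counting interval is given. B2_Mm1a_dup5714_B2mm1a_i had 3 reads in LOF and 429 in CONTROL embryos, a ratio of 0.00473 (exact 95% interval 0.000972 to 0.0139). B2_Mm2_dup85768 had 1 and 138 reads, a ratio of 0.00491 (0.000123 to 0.0278). B3A_dup21691 had 2 and 47 reads, a ratio of 0.0288 (0.00339 to 0.110). B2_Mm1a_dup5714_B2mm1a_i, B2_Mm2_dup85768 and B3A_dup21691 had no read in 6, 8 and 8 LOF embryos and in 1, 2 and 2 CONTROL embryos. Their CONTROL embryos carried them past the read limit, so that their ratios and intervals are a description.

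The 106 copies called higher included copies read in all 18 and copies read in 5 embryos. B2_Mm1a_dup615_B2mm1a_i had 38.6, 95.3 and 1052 scaled reads at the lowest, median and highest LOF embryo and 5.77, 28.2 and 123 in CONTROL. It rose by 2.89 ± 0.68 (adjusted p = 0.00523), 4 of 9 LOF embryos lay above the highest CONTROL embryo, and LOF embryos 1, 9 and 2, those with the most B2 reads, were the highest with 1052, 698 and 540. With the mitochondrial share as a covariate its change was 1.36 (adjusted p = 0.0627, the highest over its alternatives). B2_Mm1a_dup3993_B2mm1a_i had 0 to 64.5 reads in LOF and 0 to 6.77 in CONTROL embryos and rose by 4.30 ± 0.98 (adjusted p = 0.00436). B2_Mm2_dup52898 had 0 to 60.2 reads in LOF and 0 to 3.37 in CONTROL embryos and rose by 4.80 ± 1.16 (adjusted p = 0.00644), a call lost with the block (adjusted p = 0.0623, the highest over its alternatives). B2_Mm1t_dup836 rose by 5.33 ± 1.30 (adjusted p = 0.00691), but LOF embryo 1 held 340 of its scaled reads and the next embryo 27.8, and without that embryo its change was 2.99 (adjusted p = 0.0785, over its alternatives 1.69e-07 to 0.0858). B2_Mm1t_dup8519 had 92 reads in LOF and 1 in CONTROL embryos, a ratio of 62.3 (10.9 to 2486). B2_Mm1a_dup3993_B2mm1a_i, B2_Mm2_dup52898, B2_Mm1t_dup836 and B2_Mm1t_dup8519 had no read in 6, 7, 6 and 8 of 9 CONTROL embryos. Their LOF embryos carried them past the read limit, so that their values and p-values are a description. The last 3 copies had no CONTROL read and passed the read limit through LOF alone, so that they had to differ. B2_Mm2_dup18977 had 42 and 0 reads, at least 9.48-fold higher, B3A_dup46581 28 and 0, at least 6.32-fold, and B3A_dup37057 10 and 0, for which the floor leaves at least 2.26-fold. The call of B2_Mm1t_dup8519 was lost with DESeq2 (adjusted p = 0.0756), that of B2_Mm2_dup18977 with the block (0.133) and that of B3A_dup46581 with DESeq2 (0.178) and the block (0.256). The call of B3A_dup37057 was lost with no filter on low counts (0.124) and when any of the 9 CONTROL embryos was left out (adjusted p 0.0501 to 0.0639). Intervals and floors cover counting error only, since PCR reads are not independent molecules.

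A list of genes of RNA polymerase III, which transcribes free B2 RNA, was lower in most cases in the same embryos. It held polymerase subunits, TFIIIC and TFIIIB, and also the repressor Maf1 and the RNA-binding factors Ssb and Larp7. Larp7 was among the genes called lower (adjusted p = 0.000347), and Maf1 and Ssb were not called. Of 24 genes tested 17 were called lower and 0 higher, with a median log2 change of -1.81 beside -0.69 for all genes, beside 21% of all genes called lower. Over a mean of 30 scaled reads 15 of 18 were lower, beside 47.6% of genes. With TMM scaling 12 of 24 were lower and 0 higher, at 9.02% of genes, and over 30 reads 11 of 18 were lower, where 23.3% of genes were lower and 8.09% higher. Their summed level was 334 to 968 CPM (reads scaled to the library total) in LOF and 1097 to 2017 in CONTROL embryos, without overlap. In TFIIIB, Tbp mRNA had 6.59, 83.3 and 151 scaled reads at the lowest, median and highest LOF embryo and 196, 280 and 672 in CONTROL. It fell by 2.14 ± 0.43 (adjusted p = 0.00165; with TMM scaling by 1.53, 0.0214), and all 9 LOF embryos lay below all CONTROL embryos. Other TFIIIB subunits are added here after their values were seen. Brf1 had 0.241 to 22.9 scaled reads in LOF and 10.1 to 54.2 in CONTROL embryos and a log2 change of -1.26 ± 0.58 (adjusted p = 0.154). Bdp1 fell by 1.59 ± 0.41 (adjusted p = 0.0101) and lost its call with TMM scaling (adjusted p = 0.0624). Brf2, the subunit that takes the place of BRF1 at some other promoters, fell by 2.19 ± 0.40 (adjusted p = 0.000718), and with TMM scaling by 1.52 (0.0114). Among the polymerase subunits, Polr3d fell by 2.72 ± 0.32 (adjusted p = 1.48e-05), from 123 to 242 reads in CONTROL to 14.9 to 58.2 in LOF embryos. Polr3k fell by 2.48 ± 0.38 (adjusted p = 0.000134), with 40.2 to 298 reads in LOF and 251 to 959 in CONTROL embryos. Of the late 2-cell markers 0 of 9 were called under ERCC scaling and 3 were higher with TMM scaling, where 3.59% of genes were, and their summed level was 253 to 468 CPM in LOF and 99.2 to 299 in CONTROL embryos. Whether these shifts bear on the B2 values was not tested.

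In FOXJ3 LOF embryos none of the 5 families was called. Over all 19517 genes and families, 0.0102% were called lower and 0% higher by edgeR with batch as a covariate and TMM scaling, and 1115 had an unadjusted p under 0.05. The 3 B2 families were among the latter. With ERCC scaling their log2 changes were -0.43 (B2_Mm1a, unadjusted p = 0.189), -0.46 (B2_Mm1t, 0.156) and -0.57 (B2_Mm2, 0.0621), none under 0.05, with an adjusted p of 0.963 for each. Together they took 1.29, 2.69 and 6.42% of the counted reads at the lowest, median and highest FOXJ3 LOF embryo and 1.81, 3.96 and 14.6% in rIGG CONTROL embryos. B2_Mm2 had 4607, 7337 and 16256 scaled reads at the lowest, median and highest of 16 LOF embryos and 6061, 9296 and 48372 in 13 CONTROL embryos. Its log2 change was -0.79 ± 0.24 (unadjusted p = 0.00164, adjusted p = 0.541). B2_Mm1a had 13931, 33077 and 86186 in LOF and 23502, 41175 and 187197 in CONTROL and changed by -0.67 ± 0.26 (p = 0.0128, adjusted p = 0.788). B2_Mm1t changed by -0.70 ± 0.25 (p = 0.00856, adjusted p = 0.765). The LOF and CONTROL ranges overlapped in all 3 families. DESeq2 called 0 of the 5 as well, with 3 at an unadjusted p under 0.05 and adjusted p from 0.315 to 0.985.

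For B3 and B3A the changes after FOXJ3 LOF were smaller than their errors with TMM scaling. B3 had 1535, 2478 and 3437 scaled reads in LOF and 1742, 2570 and 3538 in CONTROL embryos and changed by -0.05 ± 0.13 (adjusted p = 0.984), and with ERCC scaling by 0.15. B3A had 1095, 1809 and 2470 in LOF and 1055, 1553 and 2288 in CONTROL and changed by 0.09 ± 0.14 (adjusted p = 0.972), and with ERCC scaling by 0.28 ± 0.25 (adjusted p = 0.963). The RNA polymerase III genes had 0 of 24 called and a median log2 change of 0.11, and Tbp mRNA changed by 0.11 (adjusted p = 0.973). The TBP and FOXJ3 experiments had separate CONTROL embryos and scalings, and the difference between them was not tested.

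The FOXJ3 values were also taken within each library batch. In batch 1 alone (9 LOF and 7 CONTROL embryos) the log2 changes were -1.03 for B2_Mm1a, -1.04 for B2_Mm1t, -1.24 for B2_Mm2, -0.07 for B3 and 0.01 for B3A. In batch 2 alone (7 and 6 embryos) they were -0.26, -0.31, -0.27, -0.05 and 0.17. The interaction of condition and batch was 0.74 (adjusted p = 0.726), 0.70 (0.736), 0.95 (0.606) for the B2 families, -0.00 (0.998) for B3 and 0.15 (0.922) for B3A. By this test the LOF effect differed between the batches for 0 of 19517 features, with 1553 at an unadjusted p under 0.05, B2_Mm2 among them (p = 0.0419). CONTROL embryos of batch 1 reached 187197 scaled B2_Mm1a reads with a mean of 78085 ± 58714 (SD, n = 7), and those of batch 2 had a mean of 37301 ± 14316 (n = 6). LOF means were 38898 ± 21725 (n = 9) in batch 1 and 31142 ± 7453 (n = 7) in batch 2.

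**Figure D5:**
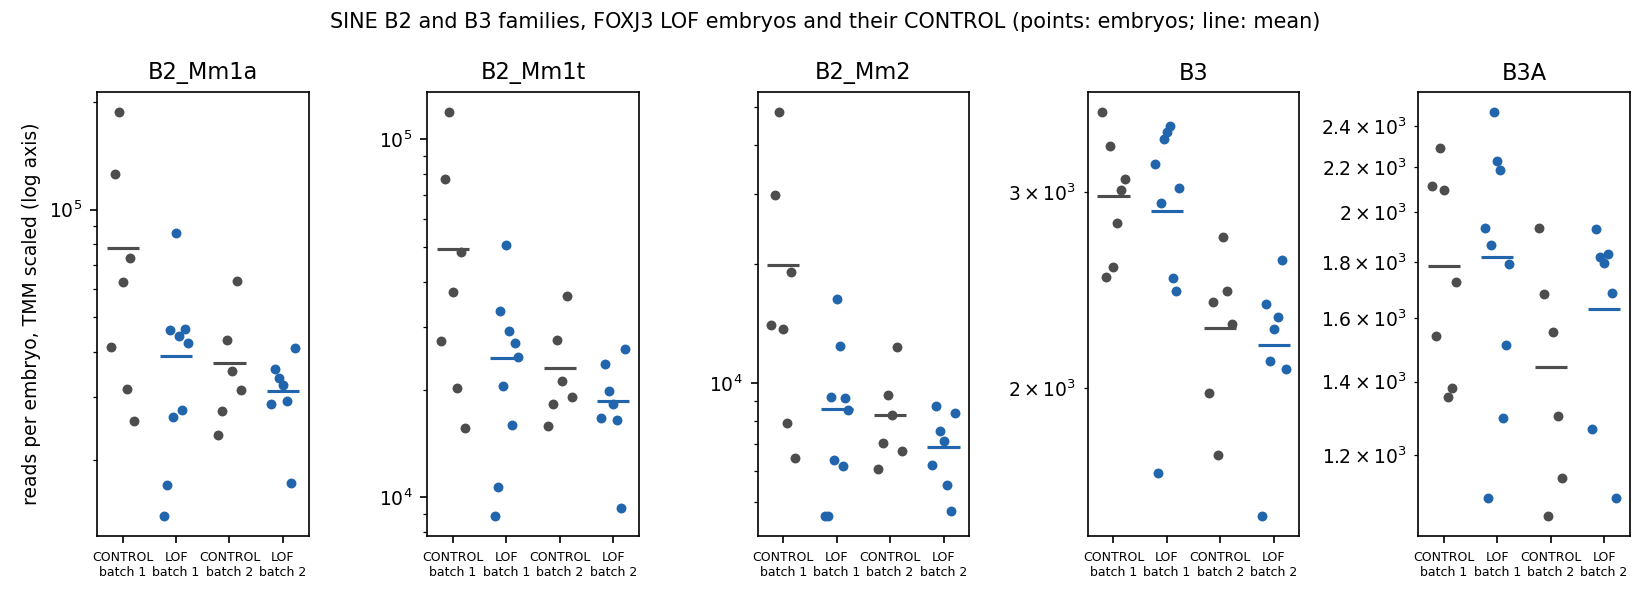
TMM-scaled reads per embryo (log axes) of the 5 families in FOXJ3 LOF embryos (blue) and their CONTROL embryos (grey), by library batch, with a point for each embryo and lines for means. The highest B2_Mm1a value, 187197, is a CONTROL embryo of batch 1, and B3 ranges from 1535 to 3437 in LOF and from 1742 to 3538 in CONTROL embryos.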

How the data were processed

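Single embryos were sequenced by Smart-seq+5′, from which the authors kept reads of transcript 5′ ends. They trimmed the reads, mapped them with STAR (2.7.11a, as in the submitters' processing notes) to GRCm38 carrying the mCherry-Trim21 construct, kept the second read and counted with TEcount (genes and TE families) and TElocal (single insertions). The deposited values are estimated counts (expected counts) without normalization and all were whole, so that rounding changed nothing. The sources used here do not say how reads that map to several copies were divided. Summed over copies, insertion counts lay 2.21 to 6.09% (medians by family) under the family counts.

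Rows of subfamilies (42 rows in 6 families, 13 of them of SINE B2 and B3) were added to their family, as the study disregards subfamilies, and the construct was left out. Embryos needed 500000 reads, 1000 genes, at most 10% mitochondrial and 15% ERCC reads; features needed a read in 25% of the embryos. The main test was edgeR (4.0.16, R 4.3.3) with the quasi-likelihood test, two-sided, Benjamini-Hochberg adjusted over all features, threshold 0.05. TBP libraries were scaled by the median of ratios over 42 ERCC transcripts, and FOXJ3 libraries by TMM with batch as covariate. The p-values rest on the spread between embryos taken as independent, with dispersion estimates that borrow across features. Spread between collections, which are not known here, was not separated from it. Alternatives were TMM or ERCC scaling, DESeq2 (1.42.0), other filters, the low-depth CONTROL embryo, a replicate block, single batches and leaving out each embryo. Tests were tried on simulated data first, with changes only in features of at least 30 scaled reads on average and a fixed dispersion. That trial does not cover copies with fewer reads or effects shared by embryos of a collection. Named are all 5 families, the 3 most-read copies per family, the 2 copies per direction whose adjusted p was smallest, and from the RNA polymerase III list Tbp and the 2 genes with the smallest adjusted p. Members and lists were chosen with earlier results of these data known. Promoter stretches came from RefSeq (GRCm38.p6).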

Additional observations from a re-analysis of the deposited data

Results flagged for a closer look

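In 99 groups of embryos the value farthest from the rest was set against Dixon's 95% critical value, and 17 groups held an embryo beyond it, where chance gives about 5% for normally distributed values; many of the copies had few reads and were chosen for a small p, and in 3 groups all other embryos had 0 reads, so that the count cannot be read against that share. Of families, B2_Mm1a had 86186 scaled reads in FOXJ3 LOF batch 1 embryo 5 (next 46230), and B3 had 1324 in CONTROL embryo 9 (next 3344). Among the named copies, LOF embryo 1 stood apart in 4: B2_Mm1t_dup14037 with 1235 (next 612), B2_Mm1t_dup836 with 340 (27.8), B2_Mm2_dup53239 with 741 (302) and B3_dup58743 with 126 (61.9). B2_Mm1t_dup836 also had 5.19 in CONTROL embryo 8 (next 1.43), and B2_Mm1t_dup4289 had 251 in CONTROL embryo 5 (next 110). B2_Mm2_dup18977 had 12.7 in LOF embryo 8 (next 5.55), B2_Mm2_dup52898 had 3.37 in CONTROL embryo 1 (next 0.678), and B3A_dup9261 had 18.9 in LOF embryo 2 (next 9.52). A single embryo alone had reads of B2_Mm1t_dup8519 (1.35 in CONTROL embryo 2), B2_Mm2_dup85768 (1.21 in LOF embryo 6) and B3A_dup21691 (1.22 in LOF embryo 5) within its group. The effective number of B2_Mm1a copies was 237 in LOF embryo 6 (next 394), and that of B3A copies was 43.1 in LOF embryo 10 (next 4.93) and 29.9 in CONTROL embryo 2 (next 14.9). LOF embryo 10 was the one in which B3A_dup29955 held 13.9% of the B3A reads.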

How the results depend on the processing

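Members called lower (1467) became 531 with TMM scaling, 130 of 1033 tested with edgeR's filterByExpr, 321 with the replicate block and 2955 with the mitochondrial share as a covariate, which was chosen after seeing the data; these were 3.49, 12.6, 2.28 and 19.4% of the members tested, beside 6.76, 38.8, 6.37 and 16.8% of all features in the same fits. Without single embryos they were 1014 to 1763, or 7.07 to 12.04% of members beside 12.4 to 15.8% of all features. Members called higher (106) became 208 with TMM scaling, 52 with DESeq2, 4 with filterByExpr, 171 with no filter and 45 with the covariate, or 1.37, 0.342, 0.387, 1.12 and 0.296% of the members tested beside 2.63, 0.554, 1.39, 0.295 and 0.659% of all features (with no filter these are 324222 features, most of them under the members' read limit, so that the shares cannot be compared); without single embryos they were 54 to 124. The TBP LOF log2 changes became -1.49 (B2_Mm1a) and -1.51 (B2_Mm1t), both then called, with the covariate; -0.36 (B2_Mm2) and -0.24 (B3A), both no longer called, with TMM scaling; and -0.43 (B2_Mm2) and -0.65 (B3A), also no longer called, with the replicate block on 14 embryos. Without single embryos they were -1.11 to -0.62 (B2_Mm1a), -1.12 to -0.65 (B2_Mm1t), -1.40 to -0.95 (B2_Mm2), -1.51 to -1.27 (B3) and -1.18 to -0.90 (B3A). For FOXJ3, B3 turned to 0.15 with ERCC scaling, and no family was called under any alternative. Directions turned for B2_Mm1a_dup4004 (0.57 with TMM scaling, 0.14 with the block, -0.45 to 0.016 without single embryos), B2_Mm1a_dup10132 (0.36 with TMM scaling, 0.69 with the block), B2_Mm2_dup50976 (-0.36 with the covariate, -0.075 to 0.60 without single embryos), B2_Mm2_dup3593 (0.84 with the block) and B3A_dup29955 (0.33 with TMM scaling). The mitochondrial share was measured after the injections, so that fits with it as a covariate may distort the LOF effect. The causes were not tested. Embryo numbers did not pair the embryos: same-numbered TBP LOF and CONTROL embryos deviated with correlations of -0.05 to 0.13 in 7 pairs (1 over 0.1), FOXJ3 embryos with -0.21 to 0.27 in 12 pairs (3 over 0.1), and in 0 pairs did an embryo correlate best with its own number, so that a number was only shared. Of 15220 members, 3746 had under 20 reads, where a difference could be missed.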
